A study of Mus musculus with 20 samples.

Results

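The genes described here encode the subunits of the receptors for glutamate and GABA, the main excitatory and inhibitory transmitters of the brain. They were chosen by symbol, as every protein-coding gene of the table named for an AMPA, NMDA, kainate or metabotropic glutamate receptor subunit, for an alpha, beta, gamma or delta subunit of the GABA-A receptor, or for a GABA-B receptor subunit. This gave 39 of the 45700 genes in the table. RNA was sequenced from whole brains of the Taiwanese mouse model of spinal muscular atrophy (SMA), a congenic FVB line, at the early-symptomatic stage, postnatal day 5, with 2 mice of each genotype, and at the late-symptomatic stage, day 7, with 3 of each. SMA mice were Smn-/-; SMN2tg/0 and their control littermates Smn-/+; SMN2tg/0, so the controls lacked a copy of Smn and both genotypes carried the human SMN2 transgene. Brain lysates were spread on sucrose gradients. RNA of all fractions pooled gave the total library (the transcriptome) and RNA of the polysomal fractions gave the polysomal library (the translatome), 20 libraries in all. Gene levels are in FPKM, fragments counted per length of transcript and per size of the library, so levels can be compared between genes and are relative to the rest of each library. The table holds no counts, so the number of fragments behind each value is not given here.

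Of the 39 genes, 36 reached a mean level of 1 FPKM across the libraries and were tested. Grin3b (mean 0.0935 FPKM), Gabra6 (mean 0.332 FPKM) and Grm6 (mean 0.0075 FPKM, listed at 0 in 14 libraries) were not. Differences are on the scale of log2(FPKM + 0.1), called at an unadjusted limma p under 0.05, the cut-off that the study set for its own tests, with the Benjamini-Hochberg adjusted p over all 15247 tested genes given beside them. The tested members have long transcripts, with a median of 5227 nt against 3172 nt for all tested genes that had a length. Exons of an antisense gene cover 13.5% of the exon bases of Grin1 and at most 9.66% of those of any other tested member, and the programs were run at their defaults, under which TopHat and Cufflinks do not use strand, so reads of such pairs cannot be told apart.

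All 7 neuronal markers were detected in every library, except that Tubb3 was listed at 0 in both control polysomal libraries of day 5, and no other marker of any cell type was at 0. The summed level of the other neuronal markers was 1512 to 1799 FPKM in the total libraries of day 5 and 2647 to 2920 FPKM at day 7, and 1788 to 2068 FPKM and 2960 to 3436 FPKM in the polysomal libraries. In bulk tissue, fewer cells of a type and less RNA per cell cannot be told apart. Smn1, read over the whole gene, was 8.92 to 9.71 FPKM in control and 9.55 to 10.1 FPKM in SMA total RNA at day 5, so its level does not check the genotype labels. No library was a duplicate of another. Among the total libraries of day 5, SMA replicate 1 stood apart. The median member deviated there by 0.085 from its mean over all 20 libraries, of both fractions and ages, and by −0.283 to −0.25 in the other 3. Equalising the library medians shifted SMA replicate 1 by −0.103 on the log2 scale.

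AMPA, NMDA and kainate receptors are glutamate-gated ion channels assembled as tetramers. The Gria genes encode the AMPA receptors that carry most fast excitation, and Gria2 makes the channel poorly permeable to calcium. Each NMDA receptor holds the obligatory Grin1 subunit, and in forebrain the Grin2b-rich receptors of the newborn are joined during postnatal life by Grin2a. The Grm genes encode G-protein-coupled glutamate receptors. GABA-A receptors are chloride channels made of alpha, beta and gamma or delta subunits, with Gabra2 and Gabra3 typical of the developing brain, while Gabbr1 and Gabbr2 together form the G-protein-coupled GABA-B receptor.

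Promoters are shown for 2 members that were higher and 2 that were lower at day 7 than at day 5, since age was the factor with which most members moved. Each is the RefSeq sequence of GRCm38.p6 from 250 bases before to 50 bases after the transcription start, written 5′ to 3′ on the minus strand, where all 4 genes lie, and capitals mark GGGCGG or its reverse complement CCGCCC, the GC box. The windows are chr2:25319138-25319437 for Grin1, chr7:57387166-57387465 for Gabrg3, chr9:4796185-4796484 for Gria4 and chr10:49788705-49789004 for Grik2.

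Grin1: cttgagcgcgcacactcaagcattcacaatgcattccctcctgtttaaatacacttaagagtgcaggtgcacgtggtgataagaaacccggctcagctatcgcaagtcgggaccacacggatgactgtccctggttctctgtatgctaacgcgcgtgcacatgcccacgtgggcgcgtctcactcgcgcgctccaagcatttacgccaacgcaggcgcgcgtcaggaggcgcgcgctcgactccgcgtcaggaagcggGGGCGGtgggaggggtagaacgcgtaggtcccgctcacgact

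Gabrg3: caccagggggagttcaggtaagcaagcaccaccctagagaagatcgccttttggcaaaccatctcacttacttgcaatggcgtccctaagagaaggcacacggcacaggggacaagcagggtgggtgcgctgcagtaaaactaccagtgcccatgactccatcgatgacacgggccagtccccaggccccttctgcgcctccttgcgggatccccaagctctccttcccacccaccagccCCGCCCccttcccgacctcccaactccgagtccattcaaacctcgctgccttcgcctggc

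Gria4: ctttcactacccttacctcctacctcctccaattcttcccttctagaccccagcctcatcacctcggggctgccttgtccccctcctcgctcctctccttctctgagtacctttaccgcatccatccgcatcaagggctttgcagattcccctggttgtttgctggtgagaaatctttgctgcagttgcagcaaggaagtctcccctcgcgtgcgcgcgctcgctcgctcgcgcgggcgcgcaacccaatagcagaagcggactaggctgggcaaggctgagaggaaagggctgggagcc

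Grik2: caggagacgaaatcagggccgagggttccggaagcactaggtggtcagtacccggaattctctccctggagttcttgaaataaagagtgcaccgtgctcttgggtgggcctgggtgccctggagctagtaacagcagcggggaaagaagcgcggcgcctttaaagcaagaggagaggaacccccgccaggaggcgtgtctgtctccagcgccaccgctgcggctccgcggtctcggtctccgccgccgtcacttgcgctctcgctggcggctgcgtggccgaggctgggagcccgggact

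The GC box matched in the windows of Grin1 and Gabrg3 and in neither window of Gria4 and Grik2. The 4 windows were picked for display. Grin1 and Gabrg3 are 2 of the 19 members called higher in both fractions, averaged over the genotypes, and Gria4 and Grik2 are the 2 called lower. The motif was not compared between members that rose and members that fell. RefSeq windows were found for 26 of the 39 members (33 windows), and 15 of these 26 genes held the motif in at least 1 window. Of all genes with a window, 38.2% held it. A match of these letters is a description of the sequence only.

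The subunit levels spanned from near 0 to over 200 FPKM. In control total RNA at day 7, Gabbr1 had the highest level of the set, 208 ± 7.16 FPKM (mean ± SD, n = 3), well above its partner Gabbr2 at 53.9 ± 4.84 FPKM. Grin2b followed at 101 ± 17 FPKM and Gria2 at 99.9 ± 12.6 FPKM. The order within the NMDA family was Grin2b, Grin1 (44.3 ± 5.30 FPKM), Grin3a (31.7 ± 0.278 FPKM), Grin2a (22.5 ± 3.85 FPKM), Grin2d (6.93 ± 0.289 FPKM) and Grin2c (0.937 ± 0.0907 FPKM), with every control brain above the next gene's values. Grin2b thus exceeded the obligatory subunit Grin1, and the cerebellar subunit Grin2c stood near the limit for testing.

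**Figure D1:**
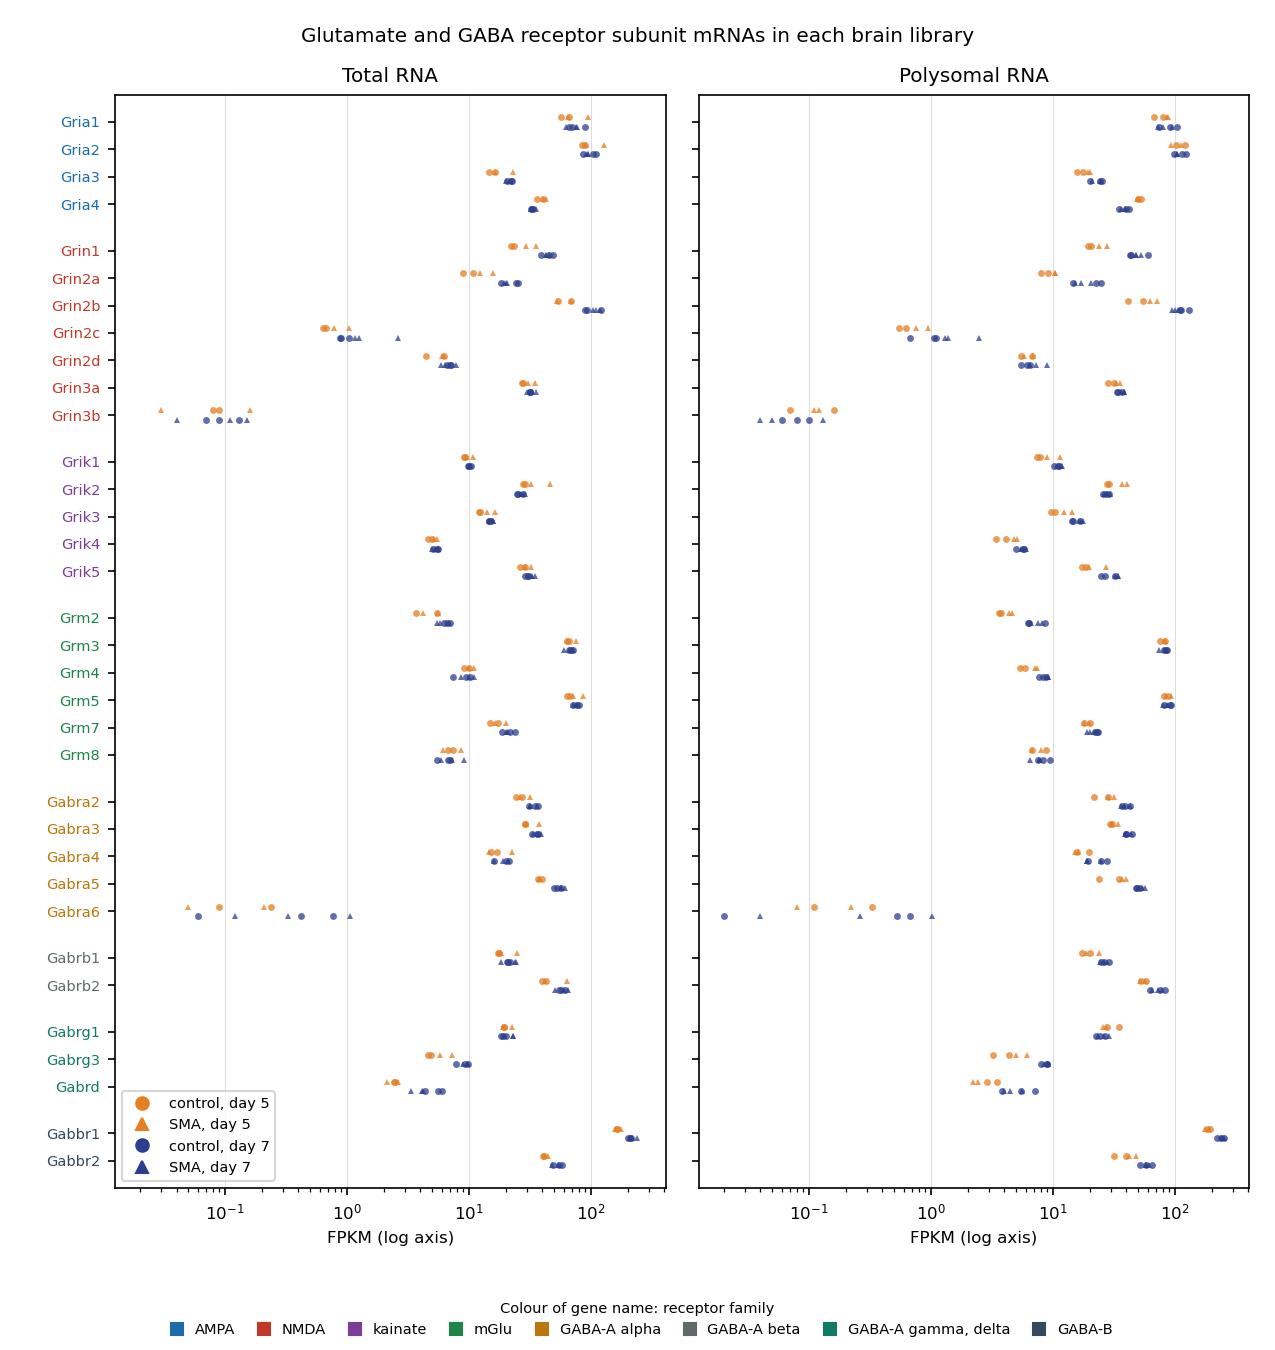
Level of each receptor subunit gene shown in each of the 20 libraries, in FPKM on a log axis, with total RNA and polysomal RNA in separate panels. Circles are control and triangles SMA mice, orange marks day 5 and blue day 7, and Grm6, at 0 in 14 libraries, is not drawn. Gabbr1 is the highest gene, and the spread between libraries is small beside the spread between genes.

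Among the AMPA subunits in the same libraries, Gria2 and Gria1 (75.4 ± 12.6 FPKM) overlapped, and Gria4 (32.8 ± 0.486 FPKM) and Gria3 (21.8 ± 1.02 FPKM) were lower. The kainate subunits ran from Grik5 at 29.9 ± 0.989 FPKM and Grik2 at 25.9 ± 1.65 FPKM down to Grik4 at 5.37 ± 0.25 FPKM. Of the metabotropic receptors, Grm5 (76.0 ± 4.92 FPKM) and Grm3 (68.9 ± 2.65 FPKM) overlapped and lay far above Grm7 (21.4 ± 2.63 FPKM), the next in order. Of the GABA-A alpha subunits, Gabra5 was at 53.1 ± 3.37 FPKM, above Gabra3 (35.3 ± 1.93 FPKM) and Gabra2 (34.2 ± 2.89 FPKM), which overlapped, and Gabra4 was lower (19.1 ± 2.83 FPKM). Gabrb2 (57.4 ± 3.21 FPKM) lay above Gabrb1 (21.1 ± 0.653 FPKM). Gabrg1 (19.2 ± 0.891 FPKM) exceeded Gabrg3 (8.95 ± 1.01 FPKM) and the extrasynaptic subunit Gabrd (5.30 ± 0.867 FPKM), without overlap between neighbours.

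Between day 5 and day 7, receptor subunit levels mostly rose. In total RNA 20 of the 36 tested members (55.6%) were called higher at day 7 and 2 (5.56%) lower, with both genotypes in the fit, while 23.7% of all tested genes were called higher and 27.1% lower, 50.8% in all. After adjustment 16 members passed, against 41.7% of all genes. In polysomal RNA 25 members (69.4%) were called higher and 2 lower, and all 27 passed after adjustment, with 26.8% of all genes called higher, 29.7% lower and 56.5% in either direction (49.3% after adjustment). The median member differed by 0.18 on the log2 scale in total and 0.39 in polysomal RNA, and the median of all tested genes was −0.04 in both. The calls were shared between the fractions for 19 members that rose and for 2 that fell, Gria4 and Grik2. Without control replicate 2 of day 5, the members called in total RNA numbered 14 in place of 22. The labels give no batch, so age cannot be told apart from the mice and libraries taken at each age. Markers of several cell types also rose with age. The 6 neuronal markers other than Tubb3 were called higher in both fractions, and Tubb3 was not in total RNA. Its polysomal call rests on the 2 control libraries of day 5 listed at 0. In each fraction 4 of 5 oligodendrocyte precursor markers, 4 of 6 microglial markers and 3 of 6 astrocyte markers were called higher. Another astrocyte marker was called lower in each fraction. The list medians were 0.36, 0.45 and 0.30 in total and 0.34, 0.51 and 0.30 in polysomal RNA. No oligodendrocyte marker was called, with list medians of 0.66 and 0.69. In each fraction 3 of 6 endothelial markers were called lower, and 1 was called higher in polysomal RNA. Of 4 tested choroid plexus markers, 2 were called lower in total and 3 in polysomal RNA. The part of these markers in the result was not tested.

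**Figure D2:**
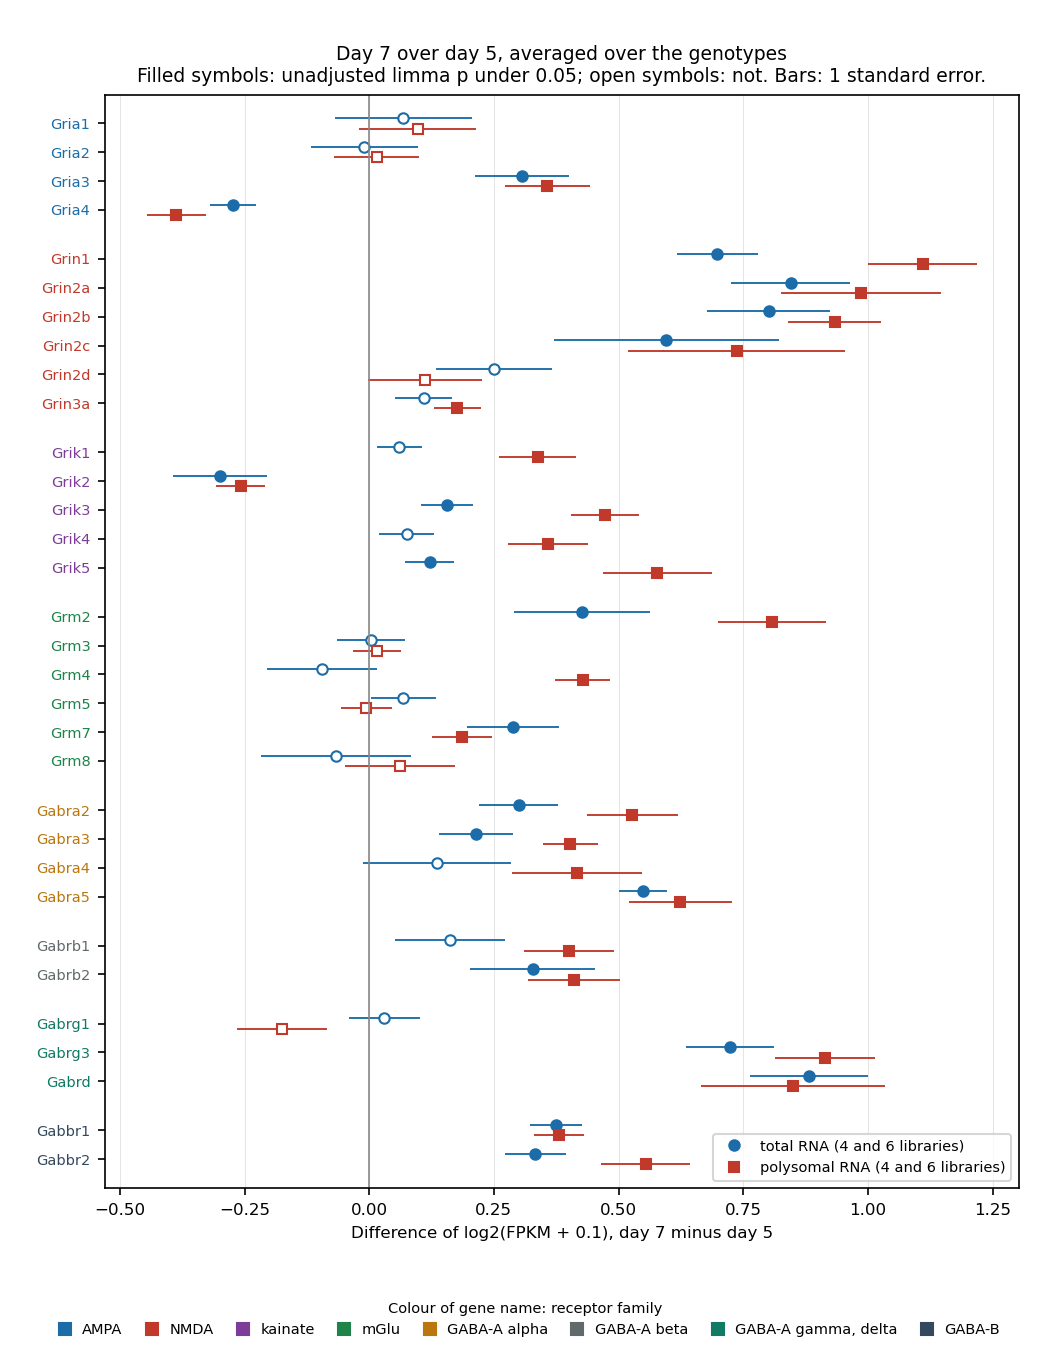
Difference between day 7 and day 5 for the tested subunit genes shown, in log2(FPKM + 0.1) averaged over genotypes, with blue circles for total RNA, red squares for polysomal RNA, bars of 1 SE and filled symbols for an unadjusted limma p under 0.05. Most filled symbols lie to the right of 0, and Gria4 and Grik2 lie to the left in both fractions.

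Most NMDA receptor genes rose, with 4 of 6 called higher in total and 5 of 6 in polysomal RNA and none lower. Grin1 (GRCm38 chr2:25291181-25319187, minus strand) was at 23.3 and 22.1 FPKM in the control against 35.2 and 29.1 FPKM in the SMA total libraries of day 5. The total libraries of day 7 had a lowest value of 38.7, a median of 43.9 and a highest value of 49.2 FPKM. Every brain of day 7 was above every brain of day 5 (log2 difference 0.70, SE 0.08, adjusted p = 0.000781). In polysomal RNA Grin1 was at 20.5, 19.2, 24.1 and 27.9 FPKM at day 5 and at 42.6 to 60.8 FPKM at day 7, again without overlap (log2 difference 1.11, SE 0.11, adjusted p = 0.000402).

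Grin2a (chr16:9567898-9995560, minus strand), the subunit that joins NMDA receptors during postnatal life, was at 8.91 and 10.8 FPKM in control against 15.8 and 12.3 FPKM in SMA total RNA at day 5. The total libraries of day 7 had a lowest value of 18.1, a median of 20.3 and a highest value of 25.3 FPKM (log2 difference 0.85, SE 0.12, adjusted p = 0.0017). The polysomal values were 7.99, 9.09, 10.3 and 10.5 FPKM at day 5 and 14.6 to 24.9 FPKM at day 7 (log2 difference 0.99, SE 0.16, adjusted p = 0.00257). Both fractions separated the ages completely. Grin2b (chr6:135713233-136173511, minus strand), the subunit of the newborn receptor, was at 68.7, 53.7, 69.0 and 52.8 FPKM in the total libraries of day 5 and had a lowest value of 89.8, a median of 107 and a highest value of 121 FPKM at day 7 (log2 difference 0.80, SE 0.12, adjusted p = 0.00247). Its polysomal values were 41.4 to 71.3 FPKM at day 5 and 94.5 to 129 FPKM at day 7 (log2 difference 0.93, SE 0.09, adjusted p = 0.000433). Grin2c was called higher in both fractions, at 0.60 (SE 0.23) and 0.74 (SE 0.22), but passed adjustment in polysomal RNA alone, and Grin2d, an interneuron and brainstem subunit, was called in neither (0.25 and 0.11). Grin3a, a subunit prominent in early postnatal brain, was called higher in polysomal RNA alone (0.18, SE 0.05).

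Grin2a and Grin2b thus both rose, and the ranges of their ratio overlapped between ages. Grin2a made up 11.5, 16.8, 18.6 and 18.9 percent of the Grin2a and Grin2b FPKM in total RNA at day 5, and 16.7, 21.4 and 16.8 percent in control and 15.6, 13.9 and 16.2 percent in SMA mice at day 7. In polysomal RNA the shares were 16.2, 14.2, 14.1 and 12.8 percent at day 5 and 18.1, 14.8, 11.8, 16.3, 15.3 and 13.2 percent at day 7, again with overlap. The share of Grin3a in all NMDA subunit FPKM, in contrast, was 20.0 to 23.1 percent at day 5 and 13.5 to 16.9 percent at day 7 in total RNA. It was 23.1 to 29.0 percent and 14.5 to 18.3 percent in polysomal RNA, so that no library of day 7 reached the range of day 5. The NMDA sum itself was 119 to 162 FPKM at day 5 and 186 to 234 FPKM at day 7 in total RNA, and 109 to 153 FPKM and 207 to 242 FPKM in polysomal RNA. The shares are descriptions and were not tested.

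**Figure D3:**
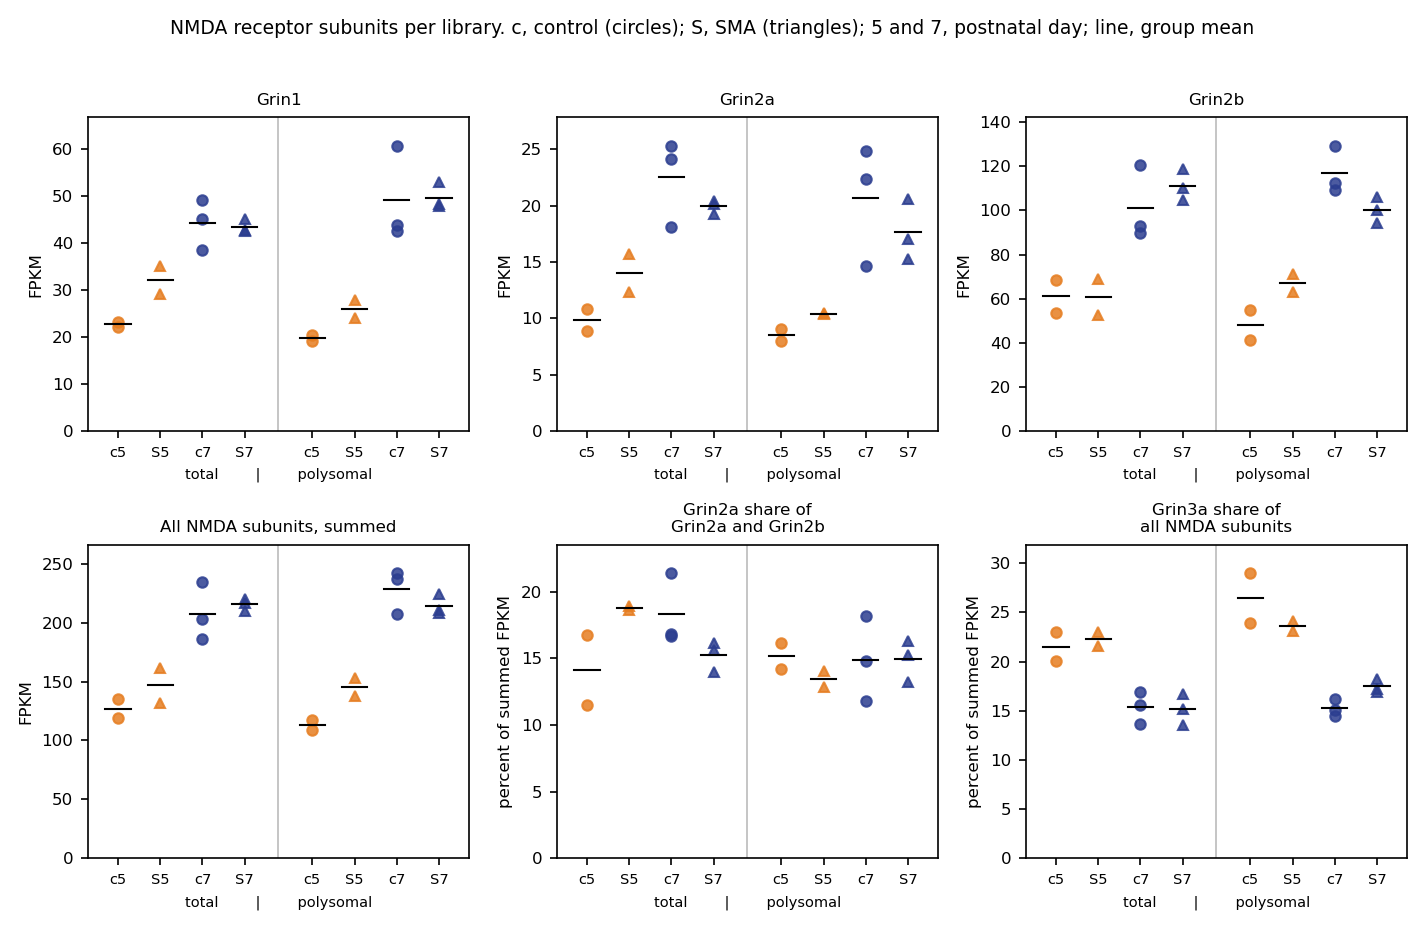
Levels of Grin1, Grin2a, Grin2b and the summed NMDA subunits in FPKM and the shares of Grin2a and Grin3a in percent, 1 point per library by fraction, age and genotype, with lines at the group means. The levels are higher in every library of day 7 than in any of day 5 of the same fraction, the Grin2a share overlaps between ages, and the Grin3a share is lower at day 7.

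AMPA receptor subunits moved less and in both directions. Gria4 (chr9:4417896-4796234, minus strand), which is prominent in interneurons and early in development, fell in both fractions. Its total values were 36.4, 40.5, 42.6 and 40.6 FPKM at day 5 and 32.1 to 35.6 FPKM at day 7 (log2 difference −0.27, SE 0.05, adjusted p = 0.00351). Its polysomal values were 52.6, 49.9, 48.5 and 49.8 FPKM at day 5 and 34.5 to 42.0 FPKM at day 7 (log2 difference −0.39, SE 0.06, adjusted p = 0.00208). Gria4 was the only tested member for which every brain of day 7 lay below every brain of day 5, in each fraction, while 14.3% of all tested genes in total and 15.7% in polysomal RNA showed this. Gria3 rose in both fractions, by 0.31 (SE 0.09) and 0.36 (SE 0.09). Gria1 was at 0.07 (SE 0.14) and 0.10 (SE 0.12) and Gria2 at −0.01 (SE 0.11) and 0.02 (SE 0.09), and neither was called. The median of the 4 genes in polysomal RNA changed sign with removal of the length trend, from 0.06 to −0.01.

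Kainate receptor subunits split by gene and by fraction. Grik2 (chr10:49094833-49788766, minus strand), a pore-forming subunit, was at 27.9 and 28.8 FPKM in control against 45.7 and 32.2 FPKM in SMA total RNA at day 5, and at 24.9 to 28.6 FPKM at day 7 (log2 difference −0.30, SE 0.09, adjusted p = 0.0388). In polysomal RNA it was at 27.7 to 40.3 FPKM at day 5 and 25.9 to 29.2 FPKM at day 7 (log2 difference −0.26, SE 0.05, adjusted p = 0.00465). Grik2 thus fell on average over the genotypes, and the ages overlapped in both fractions. The higher values at day 5 were those of the SMA mice. The difference between the ages was −0.13 in total and −0.05 in polysomal RNA of controls, and −0.47 in each fraction of SMA mice. Grik3 (0.47, SE 0.07) and Grik5, a subunit that works in complex with others, (0.58, SE 0.11) rose in polysomal RNA, as did Grik1 (0.34) and Grik4 (0.36). In total RNA these 4 genes were at 0.16, 0.12, 0.06 and 0.07, and of them Grik3 and Grik5 were called.

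Of the metabotropic glutamate receptors, Grm2 and Grm7 rose in total RNA and Grm2, Grm4 and Grm7 in polysomal RNA. Grm7, a presynaptic receptor of low glutamate affinity, was at 0.29 (SE 0.09) and 0.19 (SE 0.06). Grm2, a presynaptic autoreceptor, was at 3.62 to 4.61 FPKM at day 5 and 6.22 to 8.61 FPKM at day 7 in polysomal RNA (log2 difference 0.81, SE 0.11, adjusted p = 0.00122), with a smaller difference in total RNA (0.43). Grm4, another presynaptic receptor, was at 5.91, 5.33, 7.42 and 7.13 FPKM in the polysomal libraries of day 5 and 7.64 to 9.20 FPKM at day 7 (log2 difference 0.43, SE 0.06, adjusted p = 0.00106). Its total values of 9.05 to 11 and 7.36 to 11 FPKM overlapped (−0.09, SE 0.11). The postsynaptic receptor Grm5 (0.07 and −0.01) was called in neither fraction, nor were Grm3 (0.00 and 0.02) and Grm8 (−0.07 and 0.06).

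The GABA-A alpha subunits named here were called higher in polysomal RNA. Gabra5, which forms extrasynaptic receptors in hippocampus, was at 36.8 to 39.6 FPKM at day 5 and 50.2 to 61.8 FPKM at day 7 in total RNA (log2 difference 0.55, SE 0.05, adjusted p = 0.000283) and at 23.8 to 39.7 and 48.0 to 56.5 FPKM in polysomal RNA (log2 difference 0.62, SE 0.10, adjusted p = 0.0027). Every value of day 7 was above every value of day 5 in both fractions. Gabra2 (0.30 in total and 0.53 in polysomal RNA) and Gabra3 (0.21 and 0.40) rose less, and Gabra4 (0.14 and 0.42) was called in polysomal RNA alone.

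Among the other GABA-A subunits, Gabrg3 and Gabrd rose in both fractions. Gabrg3 (chr7:56716465-57387188, minus strand) was at 4.86, 4.62, 7.19 and 5.75 FPKM in total RNA at day 5 and 7.83 to 9.81 FPKM at day 7 (log2 difference 0.72, SE 0.09, adjusted p = 0.000969), and rose by 0.91 (SE 0.10) in polysomal RNA. Gabrd (chr4:155384980-155398112, minus strand), the subunit of extrasynaptic receptors of cerebellar and dentate granule cells, was at 2.41, 2.46, 2.12 and 2.62 FPKM in total RNA at day 5 and 3.36 to 6.03 FPKM at day 7 (log2 difference 0.88, SE 0.12, adjusted p = 0.00142), and rose by 0.85 (SE 0.18) in polysomal RNA. Each separated the ages in both fractions. Gabrg1 was called in neither fraction (0.03 and −0.17). The beta subunits Gabrb1 and Gabrb2 rose by 0.40 and 0.41 in polysomal RNA, and Gabrb2 was also called in total RNA (0.33). Both GABA-B subunits rose in both fractions. Gabbr1 was at 158 to 177 FPKM at day 5 and 199.7 to 237 FPKM at day 7 in total RNA (log2 difference 0.37, SE 0.05, adjusted p = 0.0017) and Gabbr2 at 40.8 to 44.3 and 48.1 to 58.0 FPKM (log2 difference 0.33, SE 0.06, adjusted p = 0.00505), with polysomal differences of 0.38 (SE 0.05) and 0.55 (SE 0.09).

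In all, 9 members separated the ages upward in total RNA (14% of all genes did) and 16 in polysomal RNA (16.2% of all genes). The sign of the difference was the same in control and SMA mice for 27 and 30 of the 36 members. Of the calls, 12 of 22 in total and 24 of 27 in polysomal RNA were made under each of the alternative settings and with each library left out.

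Many genes of proteins that anchor and traffic these receptors also rose. Of 14 tested auxiliary subunits of AMPA and kainate receptors, 10 were called higher at day 7 and 2 lower in total RNA and 9 and 1 in polysomal RNA, with medians of 0.48 and 0.62. Examples are Shisa9 (0.81 and 0.86) and the TARP gene Cacng7 (0.58 and 0.94). Of 20 postsynaptic scaffold genes of excitatory synapses, 8 were higher and 3 lower in total and 15 and 3 in polysomal RNA, with Dlg4, which encodes PSD-95, at 0.71 and 1.30 and Shank2 at 0.60 and 1.13. Of 12 genes of inhibitory synapses, 10 and 6 were higher and 1 and 0 lower, among them Gabarap (0.99 and 0.86) and Slitrk3 (0.61 and 0.94). Of 10 genes of GABA synthesis and transport, 7 and 6 were higher and 1 in each fraction lower. Genes that make, carry and clear glutamate were split, with 4 of 10 higher and 3 lower in total and 4 and 4 in polysomal RNA. Slc17a7, the vesicular glutamate transporter 1, was at 1.21 and 1.46, and Glud1, glutamate dehydrogenase, at −0.53 and −0.45. Of the 13 glycine, delta and minor GABA-A receptor genes, 7 were tested, and 3 of these were called higher in each fraction, among them Glrb (0.29 and 0.39).

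The difference between SMA and control mice addresses which RNAs are altered in the SMA brain at an early and a late symptomatic stage. Few receptor subunits were called, and none after adjustment. In total RNA of day 5, Grin1 alone of 36 members (2.78%) was called, against 8.25% of all tested genes (4.36% higher and 3.89% lower). After adjustment 0.164% of all genes passed. The values were 23.3 and 22.1 FPKM in the controls against 35.2 and 29.1 FPKM in SMA mice (log2 difference 0.49, SE 0.12, adjusted p = 0.551). Both SMA mice were above both controls. With 2 mice per genotype this was so for 19 members, all higher in SMA mice, while 47.6% of all genes did not overlap, 25.1% higher in SMA and 22.5% lower.

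The member differences of day 5 were mostly positive in total RNA, for 33 of 36 members, with a median of 0.20 against 0.01 for all tested genes. Gene differences in this comparison also ran with transcript length, with a Spearman rho of 0.393 across 15162 genes, which are not independent replicates. Genes of 4184.5 to 7070.25 nt, the lengths of the middle members, had a median of 0.13. After removal of the length trend the median of the members was 0.09, and that of the GABA-B pair changed sign from 0.06 to −0.07. The call for Grin1 was lost without either control mouse. Without SMA replicate 2, which left the outlying replicate 1 as the only SMA mouse, 19 members were called, and without SMA replicate 1, 2 were.

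In polysomal RNA of day 5, 4 members (11.1%) were called, all higher in SMA mice, against 12.5% of all tested genes (5.65% higher, 6.82% lower, 0.649% after adjustment). Grik2 was at 27.7 and 28.8 FPKM in the controls against 40.3 and 36.6 FPKM in SMA mice (log2 difference 0.44, SE 0.08, adjusted p = 0.375). Grin1 was at 20.5 and 19.2 FPKM in the controls and, in SMA mice, 24.1 and 27.9 FPKM (log2 difference 0.38, SE 0.11, adjusted p = 0.386). Both genes were higher in each SMA mouse. Grik3 was at 9.57 and 10.5 FPKM in the controls and, in SMA mice, 12.3 and 14.4 FPKM (log2 difference 0.41, SE 0.13, adjusted p = 0.394). Grin2c, at 0.55 and 0.63 FPKM in the controls and, in SMA mice, 0.75 and 0.94 FPKM, was the lowest of the called members (log2 difference 0.45, SE 0.14, adjusted p = 0.393). The 5 kainate subunits all lay higher in both SMA mice than in both controls, by 0.37 to 0.44, with 2 of the 5 called. In all 25 members did not overlap, 21 higher and 4 lower, Gria4, Gabrg1 and Gabrd among the latter, beside 50.5% of all genes (23.9% higher, 26.6% lower). The length trend was present here too (rho 0.31), the median member was 0.18 and with its removal 0.05, and 1 member was then called. In the same setting the metabotropic receptor median changed sign, from 0.07 to −0.02. Without SMA replicate 2, 1 member was called.

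**Figure D4:**
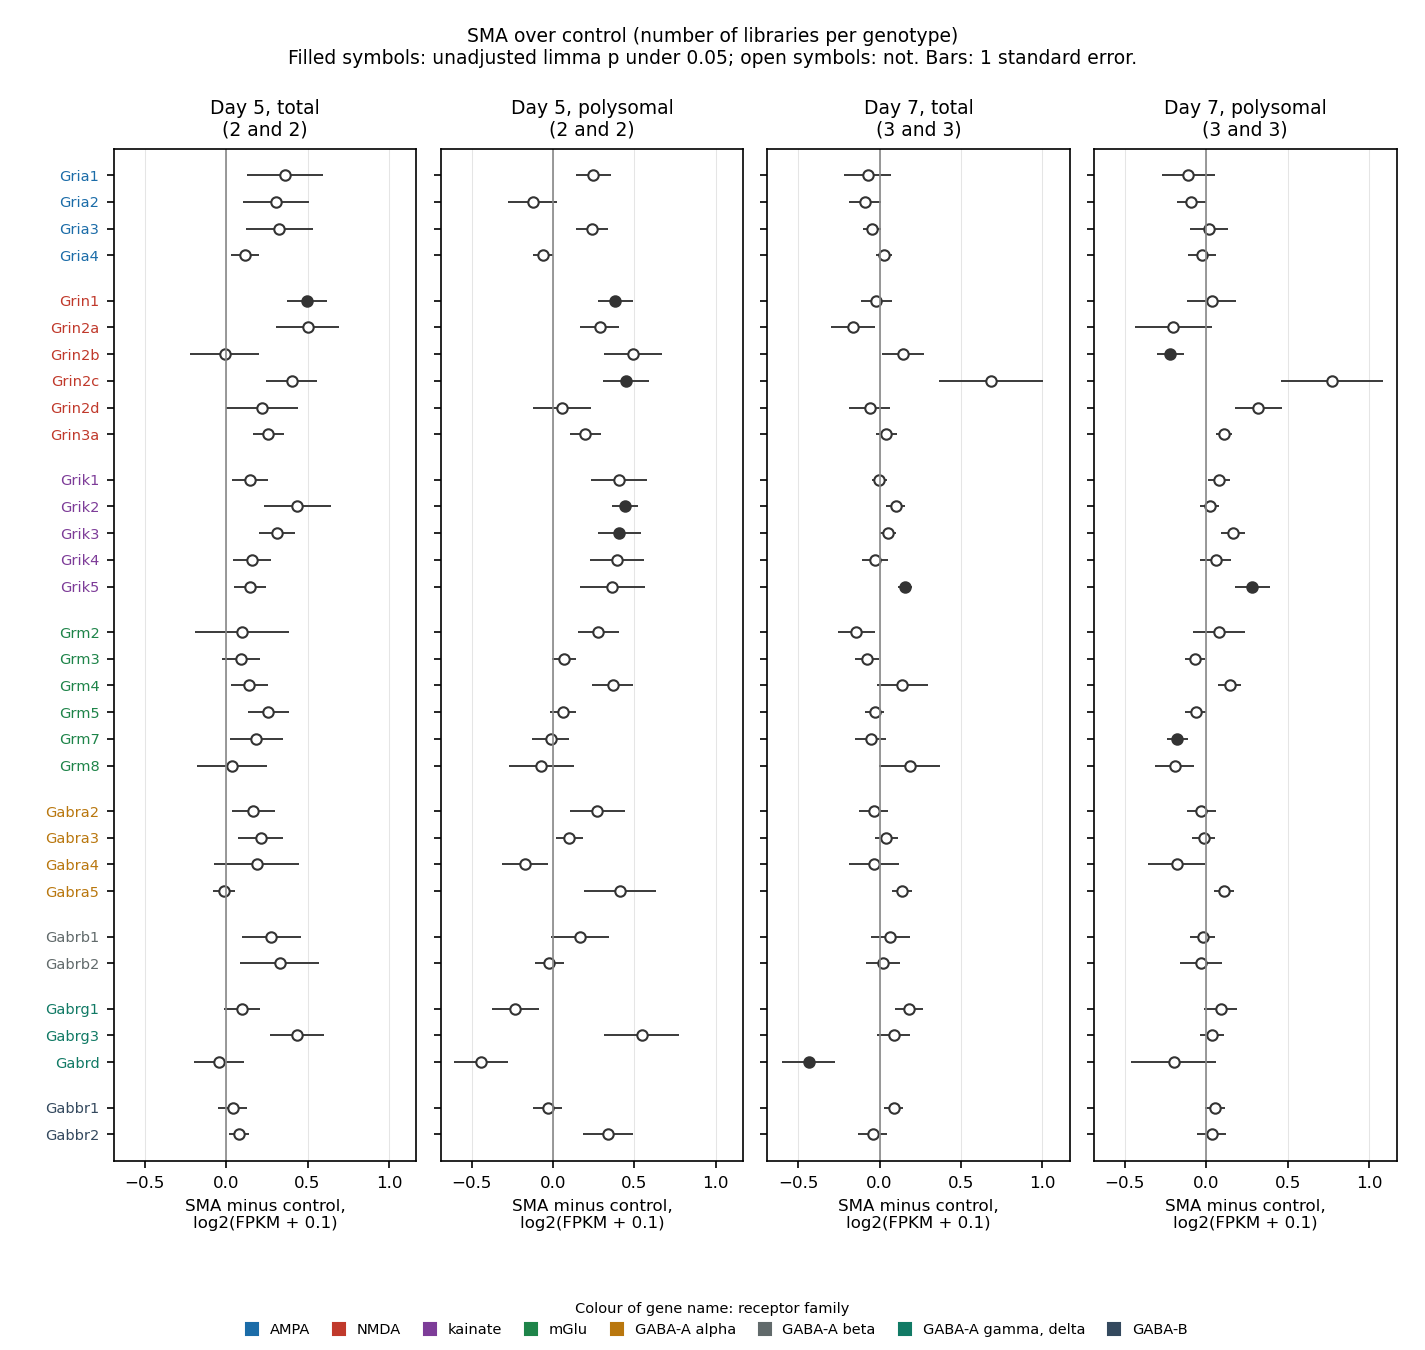
Difference between SMA and control mice for the tested subunit genes shown, in log2(FPKM + 0.1) with bars of 1 SE, in 4 panels by age and fraction, with filled symbols for an unadjusted limma p under 0.05. At day 5 most symbols lie to the right of 0 with wide bars, and at day 7 they lie around 0 with 2 filled in total and 3 in polysomal RNA.

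At day 7 the members lay around 0, with 18 of 36 positive in total and 20 in polysomal RNA and medians of 0.00 and 0.03. The median SE was 0.0880 in total and 0.0879 in polysomal RNA, against 0.148 and 0.128 at day 5. In total RNA 2 members (5.56%) were called, 1 in each direction, against 9.54% of all tested genes (4.84% higher, 4.7% lower, 0.111% after adjustment). Grik5 (chr7:25009849-25072346, minus strand) was at 30.5, 30.4 and 28.8 FPKM in the controls against 32.9, 32.3 and 34.7 FPKM in SMA mice (log2 difference 0.16, SE 0.04, adjusted p = 0.388). Gabrd was lower, at 6.03, 5.52 and 4.34 FPKM in the controls against 4.17, 3.36 and 4.08 FPKM in SMA mice (log2 difference −0.44, SE 0.16, adjusted p = 0.495). The genotypes did not overlap for these genes and for Grin2c, among 4 members in all, beside 15% of all genes (7.63% higher, 7.37% lower). The count was 4 without control replicate 1 or 3 and 1 without control replicate 2 or SMA replicate 3.

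In polysomal RNA of day 7, 3 members (8.33%) were called, against 10.7% of all tested genes (5.35% higher, 5.38% lower, 0.0918% after adjustment). Grin2b was lower, at 112, 129 and 109 FPKM in the controls against 106, 94.5 and 100.2 FPKM in SMA mice (log2 difference −0.22, SE 0.08, adjusted p = 0.442). Grm7 was lower as well, at 23.6, 23.0 and 22.3 FPKM in the controls against 18.9, 20.1 and 21.9 FPKM in SMA mice (log2 difference −0.18, SE 0.06, adjusted p = 0.431). Each control was above each SMA mouse for both genes. Grik5 was higher, at 32.3, 26.8 and 24.6 FPKM in the controls and, in SMA mice, 32.3, 34.4 and 34.5 FPKM (log2 difference 0.28, SE 0.11, adjusted p = 0.456), and its lowest SMA value was next to its highest control value. Of all members 6 did not overlap (4 higher, 2 lower), beside 16.1% of all genes, 7.86% higher and 8.24% lower. Without control replicate 2 no member was called, and without SMA replicate 1 or 3 the count was 1. None of the genotype calls at either age held under all alternative settings.

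Grin2c was higher in each SMA than in each control brain of day 7 in both fractions, at 1.04, 0.9 and 0.87 FPKM in control against 2.60, 1.25 and 1.16 FPKM in SMA total RNA, but was not called (log2 difference 0.68, SE 0.32, adjusted p = 0.558). The high value was that of SMA replicate 1. The libraries with this number also held the highest summed level of Purkinje cell markers, 165 FPKM in total and 185 FPKM in polysomal RNA, against 37.2 to 106 FPKM in the other libraries of day 7. The summed level of cerebellar granule cell markers was not highest there. At day 7 it was highest in control replicate 3, at 83.57 FPKM in total and 84.97 FPKM in polysomal RNA. SMA replicate 1 came next, at 62.01 and 70.47 FPKM. The part of either marker list in the level of Grin2c was not tested.

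Markers of other cell types differed between the genotypes. The 6 endothelial markers were all called lower in SMA mice in total RNA at both ages and in polysomal RNA of day 7, and 4 of 6 in polysomal RNA of day 5. Their sum in total RNA was 86.0 to 93.9 FPKM in control and 41.7 to 45.9 FPKM in SMA mice at day 5, and 60.8 to 76.3 and 36.4 to 40.9 FPKM at day 7. Of 5 mural cell markers, 2 and 4 were called lower in total RNA at day 5 and day 7, and 1 and 5 in polysomal RNA. Astrocyte markers summed to 267 to 314 FPKM in control and 321 to 369 FPKM in SMA total RNA at day 5, with 2 of 6 called higher, and to 358 to 368 against 382 to 455 FPKM in polysomal RNA, with none called. Their median differences were 0.13 and 0.15, and 1 of the 6 in total and 2 in polysomal RNA were lower in SMA mice. Of 5 oligodendrocyte precursor markers, 2 were called higher in total RNA of that age and 1 lower in polysomal RNA. Astrocyte markers summed to 306 to 372 FPKM in control and 394 to 490 FPKM in SMA total RNA at day 7, with 1 of 6 called higher. Aldoc had the highest level of the 6. Their median difference was 0.08, and 1 was lower in SMA mice (−0.26). Choroid plexus markers were called higher at day 7 for 3 of 4 in both fractions. Of 6 microglial markers, 1 was called lower in each fraction of day 5. At day 7, 2 were called higher and 1 lower in total RNA, and 1 higher in polysomal RNA. Of the 6 neuronal markers other than Tubb3, Map2 was called higher in total RNA at each age and none was called in polysomal RNA. Tubb3 was called higher in polysomal RNA of day 5, where both control libraries were listed at 0, and not in the other comparisons of genotype. The part of these differences in the receptor subunit values was not tested.

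Among the other synaptic genes, none passed between the genotypes after adjustment. The unadjusted calls below stand beside the shares of all tested genes called higher in SMA mice. These were 4.36% in total and 5.65% in polysomal RNA of day 5, and 4.84% and 5.35% at day 7. The day 5 differences of all genes ran with transcript length (rho 0.393 and 0.31), and the length trend was not removed for these lists. Of the 10 glutamate handling genes, 2 were called higher in SMA total RNA at day 5, the glial transporter Slc1a2 (0.66) and glutamine synthetase Glul (0.46), and 3 at day 7, Glul (0.47), Glud1 (0.27) and Slc17a6 (0.25). Glul was called in polysomal RNA of day 7 as well (0.49). Of the GABA handling genes, Slc6a13, a transporter of meninges and vessels, was called higher at day 7 in total (0.69) and polysomal RNA (0.63). Of 20 excitatory scaffold genes, 3 were called higher in SMA polysomal RNA of day 5 (Dlgap1, Dlg1 and Shank2, at 0.36, 0.30 and 0.57) and 2 lower in that of day 7 (Homer1 at −0.15 and Dlg1 at −0.28), where 5.38% of all genes were called lower. In polysomal RNA of day 5 the genotypes did not overlap for 17 of the 20, beside 50.5% of all genes, and the list median was 0.36.

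Whether the genotype difference itself changed between ages was tested as an interaction. In total RNA Grin1, Grin2a and Grik3 were called (8.33% of members, with 10.1% of all genes called, 4.55% higher and 5.6% lower) and in polysomal RNA Grin2b, Grik2 and Gabrg3 (8.33% of members, with 13.7% of all genes called, 6.81% higher and 6.86% lower), with the SMA minus control difference lower at day 7 in all 6. Grin2b shows the form of it. Its polysomal level was 41.4 and 54.8 FPKM in the controls against 63.1 and 71.3 FPKM in SMA mice at day 5, and 112, 129 and 109 against 106, 94.5 and 100.2 FPKM at day 7, so that SMA mice were above controls at day 5 and below them at day 7. None passed after adjustment, against 0.125% of all genes in total and 0.597% in polysomal RNA. These differences also ran with transcript length (rho −0.378 in total and −0.343 in polysomal RNA), and after removal of the length trend none of the 3 polysomal calls, that of Grin2b included, was made, and of the 3 in total RNA that of Grin1 was kept and those of Grin2a and Grik3 were lost. The count in total RNA was 14 without SMA replicate 2 of day 5, 6 without control replicate 3 of day 7, 1 without control replicate 1 or 2 of day 7 and 0 without SMA replicate 1 of day 5. In polysomal RNA it was 8 without control replicate 2 of day 5, 6 without control replicate 3 of day 7 and 5 without SMA replicate 1 of day 5.

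Translation efficiency (TE), the polysomal level relative to the total level, was compared between genotypes to ask whether polysome loading of these RNAs differs in SMA. At day 5 no member was called by limma at an unadjusted p under 0.05, against 2.32% of all tested genes (1.26% higher, 1.06% lower, 0.617% after adjustment), and 1 was called in the single model over the 20 libraries. At day 7 Grin2b alone was called, lower in SMA mice (log2 difference −0.37, SE 0.16, adjusted p = 1), against 2.07% of all tested genes (1.09% higher, 0.977% lower, 0.0394% after adjustment). Its total values were 121, 93.1 and 89.8 FPKM in the controls against 110.1, 119 and 105 FPKM in SMA mice, and its polysomal values 112, 129 and 109 FPKM against 106, 94.5 and 100.2 FPKM, so the polysomal levels separated the genotypes and the total levels did not. With the replicate number as a block, pairing total and polysomal libraries, Grin2b was at −0.37 (SE 0.17) and no longer called, and 2 members were called higher, among them Grin2d (0.38, SE 0.06), each with an adjusted p of 0.959. The count of day 5 was 4 without SMA replicate 2, 2 without SMA replicate 1 and 1 without control replicate 2. That of day 7 was 3 without control replicate 1, 2 without SMA replicate 1 and 0 without any other replicate number.

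Across genotypes, the ratio of polysomal to total level describes how much of each RNA was on polysomes relative to the average RNA. The fits of this ratio at both ages took total and polysomal libraries as unpaired. The counts with the replicate number as a block are given further below. At day 5, 6 members (16.7%) were called higher in polysomal RNA and 5 (13.9%) lower, 30.6% in all, against 18.7%, 17.2% and 35.9% of all tested genes. After adjustment 3 members passed, and 13.4% of all genes. Gabrg1, at 19.0 to 22.4 FPKM in total and 25.6 to 34.7 FPKM in polysomal RNA, was highest (log2 difference 0.51, SE 0.10, adjusted p = 0.0327). Gria4 followed, at 36.4 to 42.6 and 48.5 to 52.6 FPKM (log2 difference 0.33, SE 0.05, adjusted p = 0.0246). Grm4 was lowest, at 9.05 to 11 FPKM in total and 5.33 to 7.42 FPKM in polysomal RNA (log2 difference −0.63, SE 0.07, adjusted p = 0.0105). These 3 did not overlap between fractions, passed adjustment and were called under each alternative setting. Grik5 (−0.50, SE 0.12), Grin2a (−0.31, SE 0.11), Grin1 (−0.25, SE 0.09) and Grik3 (−0.23, SE 0.08) were also called lower. The count fell from 11 to 3 without control replicate 1 and to 4 without control replicate 2.

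At day 7, 15 members (41.7%) were called higher in polysomal than in total RNA and 1 (2.78%) lower, and 12 of these passed adjustment, against 25.5% of all tested genes higher, 15.5% lower, 41% in all and 30% after adjustment. Gabrb2 (0.33, SE 0.09), Gabrg1 (0.31, SE 0.07), Grm3 (0.29, SE 0.05) and Gabrb1 (0.28, SE 0.07) were highest. Grm3, a receptor found on astrocytes as well as neurons, was at 59.5 to 71.8 FPKM in total and 73.8 to 86.2 FPKM in polysomal RNA at day 7 (log2 difference 0.29, SE 0.05, adjusted p = 0.00258). Gabra5 was called lower, at 50.2 to 61.8 FPKM in total and 48.0 to 56.5 FPKM in polysomal RNA (log2 difference −0.12, SE 0.04, adjusted p = 0.0756). Gabrg1, Grm3, Gabbr1, Gria4 and Grm5 were called higher at both ages, and 12 of the 16 calls of day 7 were made under each alternative setting. The median member was at 0.03 at day 5 and 0.15 at day 7, against 0.02 and 0.05 for all tested genes. The median of the NMDA subunits at day 7 was 0.03 and after removal of the length trend −0.00308, so its sign depended on that setting.

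**Figure D5:**
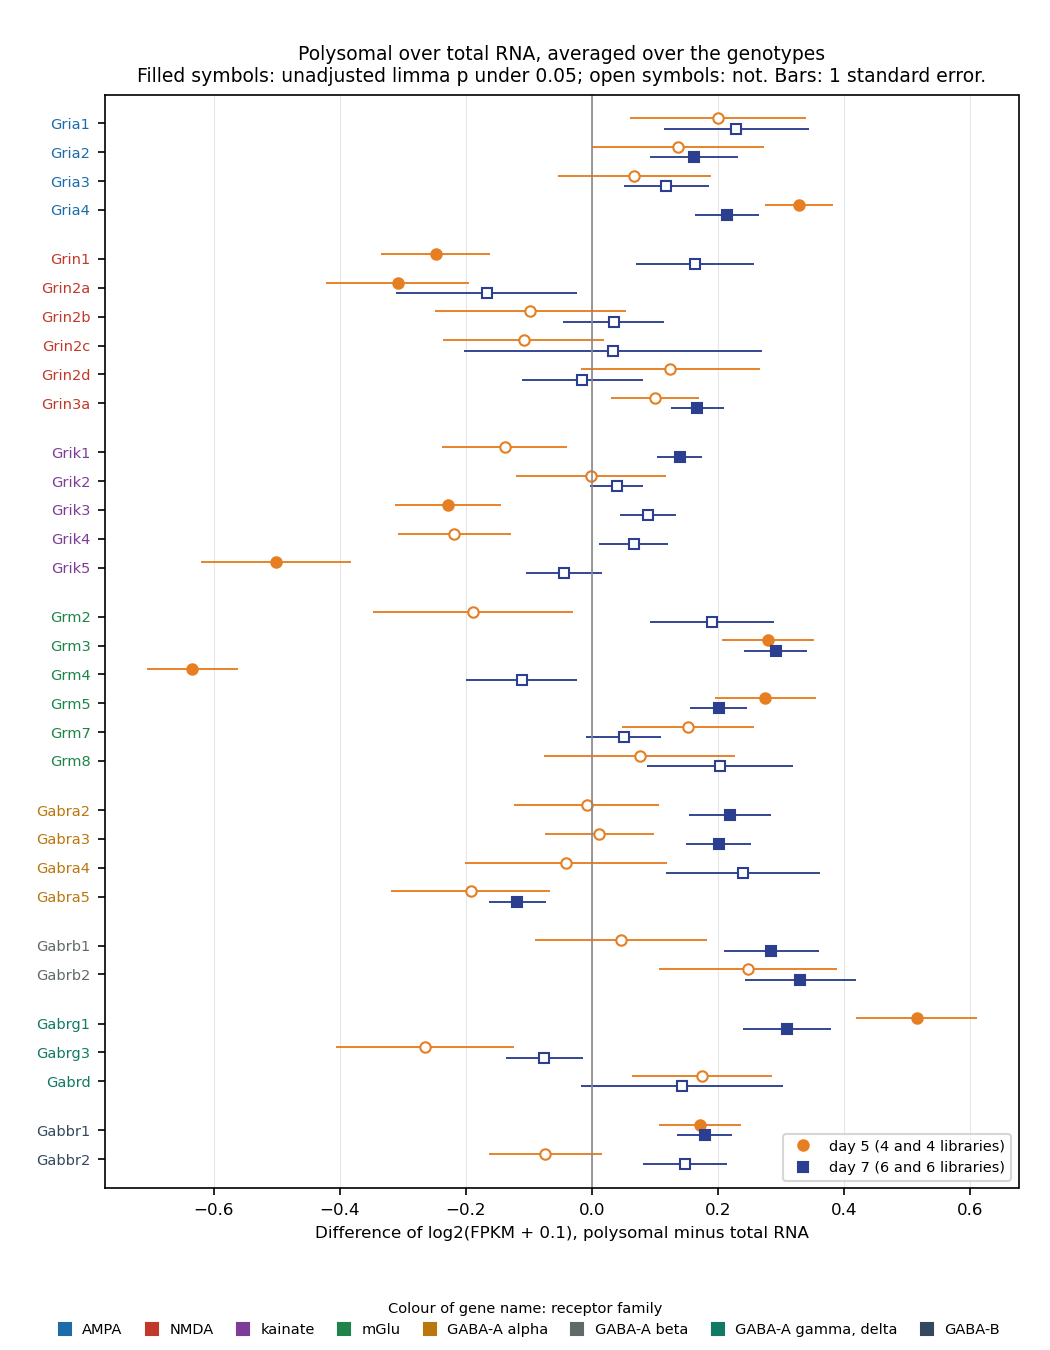
Difference between polysomal and total RNA for the tested subunit genes shown, in log2(FPKM + 0.1) averaged over genotypes, with orange circles for day 5, blue squares for day 7, bars of 1 SE and filled symbols for an unadjusted limma p under 0.05. Gabrg1 is farthest to the right and Grm4 farthest to the left at day 5, and most filled symbols of day 7 lie to the right of 0.

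Genes of partner proteins were read in the same ratio. Of the 14 auxiliary subunit genes, 6 were called lower and none higher on polysomes at day 5 and 5 lower and 1 higher at day 7, with Cacng7 at −1.24 and −0.89 and Cnih2, a cornichon protein that exports AMPA receptors, at −1.07 and −1.03. Of 20 excitatory scaffold genes, 10 were lower and none higher at day 5, among them Shank1 (−0.73) and Homer2 (−0.71), and at day 7, 7 were higher and 2 lower. Glutamate handling genes were called higher on polysomes for 5 of 10 at each age and GABA handling genes for 2 and 7 of 10, with none lower.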

How the data were processed

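The authors sequenced total and polysomal RNA of 20 mouse brain libraries, prepared with a stranded total RNA kit, and aligned the reads with TopHat2 2.0.14 to GRCm38.p4 with Gencode annotation. They estimated FPKM per gene with Cufflinks 2.2.1, and the deposited table holds these FPKM values. The unit divides by transcript length and library total, so it keeps no counts. The mapped reads per library that the study lists were not used here, and no interval for counting error is given. All 20 value columns were used.

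From the table, log2(FPKM + 0.1) was fitted for the 15247 genes whose mean reached 1 FPKM, with limma 3.58.1 in R 4.3.3 (lmFit and eBayes with a trend), fitted to the libraries of the groups compared, with p-values adjusted by Benjamini-Hochberg over all tested genes. The subunits, the gene lists and the tests were chosen with earlier results of these data known. Members were named with values per library where called in a comparison (at most the 10 with the smallest p) and for Grin2a and Grin2b. A few members and list genes stayed in all fits and counts but are not reported here by name or in the figures. Of each other list up to 3 called genes with the smallest p were named per comparison. Transcript lengths came from Gencode annotation of GRCm38 (98.8% of genes matched). The fits were tested on simulated data.

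Alternatives were a pseudocount of 1, no filter on low values, equal library medians, removal of the length trend (lowess, span 0.3), 1 model over the 20 libraries, the replicate number as a block, and each replicate left out. The block with length removal was chosen after seeing the data. The labels number total and polysomal libraries alike without stating that a number is 1 mouse. Deviations of same-numbered total and polysomal libraries from their group means were correlated for 10 numbers. The correlations were −0.0391 to 0.109 over the 15247 tested genes and 0.122 to 0.539 over the 9779 protein-coding genes of at least 5 FPKM. At day 5, with 2 libraries per group, both numbers of a genotype give the same value by construction. The block is therefore given beside translation efficiency, where it changed a call. Control and SMA libraries of 1 number correlated at −0.0902 to 0.0327 and at −0.302 to 0.195 over the same gene sets, so numbers were not taken to pair genotypes.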

Additional observations from a re-analysis of the deposited data

Results flagged for a closer look

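For 6 subunit genes the difference between SMA and control mice itself differed between day 5 and day 7 in a test of the interaction of age and genotype by limma at an unadjusted p under 0.05. In total RNA the change of the SMA minus control difference from day 5 to day 7 was −0.52 for Grin1 (SE 0.16), −0.66 for Grin2a (SE 0.24) and −0.26 for Grik3 (SE 0.10), each with an adjusted p of 0.486. In polysomal RNA it was −0.71 for Grin2b (SE 0.19, adjusted p = 0.279), −0.42 for Grik2 (SE 0.10, adjusted p = 0.235) and −0.51 for Gabrg3 (SE 0.20, adjusted p = 0.351). All 6 were lower at day 7, none passed after adjustment, and none was called under every alternative setting.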

How the results depend on the processing

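The number of receptor subunit genes called in a comparison was recomputed under each alternative, with counts within 1.5 times of the reported one unless given here. For the genotype difference at day 5, total RNA gave 1 call as reported, 3 with equal library medians and 10 in 1 model over the 20 libraries, and polysomal RNA gave 4 as reported, 2 with equal medians, 1 after removal of the length trend and 12 in the model over the 20 libraries. At day 7 total RNA gave 2 calls as reported and 0 with the replicate block, and polysomal RNA gave 3 and, with no filter, 1. Translation efficiency at day 5 gave 0 calls and 1 in the model over the 20 libraries. At day 7 it gave 1 call as reported, 0 with no filter, after removal of the length trend or in the model over the 20 libraries, and 2 with the replicate block, with or without removal of the length trend. The interaction of age and genotype gave 3 calls in total RNA and 5 in the model over the 20 libraries, and in polysomal RNA 3 as reported, 0 after removal of the length trend, 5 in the model over the 20 libraries and 5 with the replicate block. The causes were not tested. The block left the age and the polysomal to total counts within 1.5 times of the reported ones (18 and 27, and 8 and 22).

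With 1 replicate left out at a time, a lone sample of a group was assumed to vary like the other groups. For translation efficiency and the polysomal to total ratio, the total and polysomal libraries of that replicate were left out together. The counts for the genotype difference ranged from 0 to 19 in total and 1 to 6 in polysomal RNA of day 5, and from 1 to 4 and 0 to 4 at day 7. Those for translation efficiency were 0 to 4 and 0 to 3, those for age 14 to 25 in total and 26 to 27 in polysomal RNA, those for the interaction 0 to 14 and 2 to 8, and those for the polysomal to total ratio 3 to 11 at day 5 and 13 to 19 at day 7. None of the member calls changed direction under an alternative, and directions of members that were not called were not compared gene by gene. Over all comparisons, the member calls, named in the text or not, were kept 610 times and lost 136 times on leaving out a replicate. They were lost 2 to 16 times under each other alternative. The deposited table holds no counts and the mapped reads that the study lists were not used, so depth was not weighed. The 2 or 3 mice per genotype limited the precision of all genotype comparisons.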

Other observations

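Genes around transmitter handling also differed between the ages, given here as the log2 difference of day 7 from day 5 in total and then polysomal RNA, each called. Gad2, a GABA-synthesising enzyme, was higher by 0.75 and 0.74, and the astrocytic GABA transporter Slc6a11 by 0.60 and 0.71. Slc12a5, the chloride extruder KCC2, was higher by 0.34 and 0.48. Among the glutamate genes, the neuronal transporter Slc1a1 was higher by 0.38 and 0.24. Of the receptor genes close to the families described, Gabrq was higher by 0.34 and 0.50, and Grid1, a delta glutamate receptor, by 0.14 and 0.25. Pick1, which binds AMPA receptor subunits, was lower (−0.43 and −0.40).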
